A study of Mus musculus with 45 samples.

Results

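The genes described here are 40 genes of the canonical Wnt pathway in mouse embryonic stem cells (ESCs), and the measurements are of open chromatin around them. They comprise 18 Wnt ligands, 12 receptors (the Frizzled genes Fzd1 to Fzd10 and the co-receptors Lrp5 and Lrp6), 5 nuclear effectors (Ctnnb1, Lef1, Tcf7, Tcf7l1 and Tcf7l2), the scaffold gene Axin1 and 4 commonly used target genes (Axin2, Sp5, Lgr5 and T). A peak was assigned to a gene when its summit lay within 20 kb of the gene's 5′ end in mm10, a rule that used position only and no measured change. It found 264 of the 184964 peaks in the table, and every one of the 40 genes had at least 1. Each peak is named by its gene and the distance of its summit from that 5′ end, with a minus sign for upstream. Promoter peaks were those within 500 bp of a transcript start of the gene itself: 43 peaks at 37 genes, with none for Wnt5b, Wnt6 or Wnt10a. A further 10 peaks lay within 500 bp of a start of another gene, and the other 211, near 36 genes, were distal.

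Chromatin accessibility had been measured by ATAC-seq, in which a transposase cuts and tags DNA that is not covered by nucleosomes, so that fragment counts over a site report how open it is. Each ESC line was a clone in which FKBP had been knocked in at the gene of 1 pluripotency factor, a tag through which the small molecule dTAG-13 recruits an E3 ligase and has the fused protein degraded. SOX2-FKBP cells were sampled without dTAG (NT, given the solvent DMSO) and after 0.5, 1, 2, 6 and 24 h of dTAG-13 at 500 nM, with 2 libraries per time. OCT4-FKBP cells were sampled at NT, 2, 6 and 24 h with 2 libraries per time, and NANOG-FKBP cells at the same times with 2 NT libraries and 3 libraries at each dTAG time. SOX2-FKBP and NANOG-FKBP were made in E14 cells (the methods name the IB10 ESCs for SOX2) and OCT4-FKBP in V6.5 cells, so the depleted factor and the parental line cannot be told apart, and levels are compared only within a line. How far each protein fell was not measured in the files used here. All groups, NT included, grew in 2i/LIF medium, with the MEK inhibitor PD0325901 and with the GSK3 inhibitor CHIR99021 at 3 µM. The label tissue is embryo and the cell type embryonic stem cell.

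Wnt ligands bind Frizzled receptors with an LRP5 or LRP6 co-receptor, which stops the AXIN and GSK3 complex from marking β-catenin (encoded by Ctnnb1) for destruction, and stabilised β-catenin then binds TCF and LEF proteins at target genes. In mouse ESCs TCF7L1 acts mainly as a repressor of pluripotency genes, and inhibition of GSK3, which relieves this repression, helps to hold the cells in the naive state. CHIR99021 acts below the ligands and receptors, and it was present in every library described here.

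The 31 libraries held 1817191 to 17575631 fragments in peaks. The 3 shallow libraries were replicate 2 of each dTAG time in the NANOG-FKBP line (1817191 to 3272168 fragments, with 13.2 to 17.6% in mitochondrial peaks). Promoter peaks were found in the table for 7 of 8 ESC marker genes, at 49.1 to 578 normalised counts in NT. Peaks at the promoters of fibroblast genes, which feeder cells would bring, were present for 4 of 5 genes at 3.37 to 167 normalised counts, and at the promoters of genes of differentiated types for 3 of 7 genes at 8.66 to 61.8. The methods describe culture on gelatin-coated plates and name no feeder cells. An open promoter is not proof that its gene is expressed. Replicates are separate libraries, and nothing in the labels says that they came from separate cultures (the methods mention an independent SOX2-FKBP clone without saying which replicate it was), so p-values measure the spread between these libraries, which may be technical. In a population measurement, fewer cells with an open site and a less open site in each cell cannot be told apart.

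Counts below are normalised fragment counts, that is fragments in the peak on 1 scale for all 31 libraries. A peak is called lost or gained when its counts were lower or higher than in NT of the same line at an adjusted p below 0.05 in edgeR's quasi-likelihood test across all peaks, with no minimum fold. Changes are log2 fold changes with their standard error. All times of a line are set against the same NT libraries, so the times are not independent of each other. Of the 264 peaks, 248 had enough counts to be tested in the 3 lines (43 promoter, 10 at other genes' promoters and 195 distal), and 241 in the shorter SOX2-FKBP series that holds 0.5 and 1 h (188 distal); the peaks that were not tested were all distal.

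Sequence around the summit is printed for 6 distal peaks that were lost at 2 h of depletion, to show what the DNA at these sites holds. They were picked from the windows of 11 of the 14 such peaks because they hold a match to a SOX or POU motif. The other 5 of the 11, at Fzd10 (7.2 and 3.8 kb upstream), Fzd5 (4.1 and 14.4 kb downstream) and Tcf7l1 (19.0 kb downstream), held no match to any motif searched. The rest of the 14 windows, at Wnt8a (9.6 kb downstream) and Fzd8 (14.6 kb upstream and 3.0 kb downstream), were searched as well. They enter the counts below, with SOX cores among them, and are not printed. The 200 bp at each summit in the mm10 reference, on the plus strand, were searched on both strands for the SOX core (ACAATG or ACAAAG), the TCF/LEF core (CTTTGAT or CTTTGAA), the POU octamer (ATGCAAAT) and the composite SOX-POU element, which can share bases with the octamer. Capitals mark the matches. The windows are chr14:65245526-65245725 for Fzd3, chr5:135246577-135246776 for Fzd9, chr3:131102297-131102496 and chr3:131118050-131118249 for the upstream and the intronic Lef1 peaks, chr6:72795088-72795287 for Tcf7l1 and chr17:8414458-8414657 for T.
Fzd3 +16.8 kb: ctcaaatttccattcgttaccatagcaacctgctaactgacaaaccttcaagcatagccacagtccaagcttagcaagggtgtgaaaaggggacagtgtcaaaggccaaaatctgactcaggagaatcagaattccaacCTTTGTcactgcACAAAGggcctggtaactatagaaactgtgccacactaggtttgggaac
Fzd9 +4.6 kb: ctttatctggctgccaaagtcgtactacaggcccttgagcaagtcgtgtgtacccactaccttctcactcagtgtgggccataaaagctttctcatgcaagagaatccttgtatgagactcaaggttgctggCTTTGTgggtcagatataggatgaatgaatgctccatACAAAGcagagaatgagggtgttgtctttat
Lef1 -8.1 kb: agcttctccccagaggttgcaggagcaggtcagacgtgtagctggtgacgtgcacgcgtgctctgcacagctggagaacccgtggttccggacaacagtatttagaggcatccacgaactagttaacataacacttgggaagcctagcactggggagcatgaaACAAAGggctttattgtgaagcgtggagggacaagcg
Lef1 +7.7 kb: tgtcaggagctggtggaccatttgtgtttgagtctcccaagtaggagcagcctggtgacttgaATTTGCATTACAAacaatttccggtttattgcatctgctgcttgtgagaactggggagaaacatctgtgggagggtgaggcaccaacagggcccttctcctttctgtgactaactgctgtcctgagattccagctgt
Tcf7l1 -5.9 kb: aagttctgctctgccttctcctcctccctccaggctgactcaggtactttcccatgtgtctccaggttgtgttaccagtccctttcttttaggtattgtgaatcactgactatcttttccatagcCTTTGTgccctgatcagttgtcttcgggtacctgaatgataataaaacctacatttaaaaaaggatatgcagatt
T -19.9 kb: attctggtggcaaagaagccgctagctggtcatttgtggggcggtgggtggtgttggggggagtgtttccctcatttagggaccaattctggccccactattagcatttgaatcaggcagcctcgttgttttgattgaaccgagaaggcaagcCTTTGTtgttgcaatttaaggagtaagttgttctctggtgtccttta
The Fzd3 and Fzd9 windows each held 2 SOX cores, the upstream Lef1, the Tcf7l1 and the T windows 1 each. The intronic Lef1 window held the octamer and, over the same bases, the composite element. Of the 14 distal peaks lost at 2 h in the SOX2-FKBP or the OCT4-FKBP line, 7 held a SOX core (50%), 2 a TCF/LEF core (14.3%), 1 the octamer and 1 the composite, against 27.1%, 8.81%, 2.22% and 0.221% of all 142856 distal peaks for which a full window could be read. Over all times, 17 of the 38 distal Wnt gene peaks that were lost in any line held a SOX core (44.7%), against 7 of 41 that were gained (17.1%) and 17 of 119 that were never called (14.3%). The TCF/LEF core was in 7 of 38, 6 of 41 and 7 of 119. Among the 43 promoter peaks 8 held a SOX core (18.6%, against 15.9% of all promoter peaks) and 6 a TCF/LEF core (against 4.36% of all). These are matches of letters and were not tested.

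Distal peaks of the Wnt genes were lost from 0.5 h after SOX2 depletion, while their promoters stayed without a call until 24 h but for 1. At 0.5 h 5 of 188 distal peaks were lost, against 3.56% of all distal peaks, and 2 were gained, against 0.176%. At 1 h 11 were lost (6.15% of all distal peaks) and 5 gained (0.965%). The counts at 2 h were 9 of 195 lost (5.71% over all) and 3 gained (0.633%), and at 6 h 13 lost (7.68%) and 3 gained (1.26%). At 24 h 20 were lost and 8 gained, with 12.1% and 4.44% over all distal peaks. The shares of Wnt gene peaks lost, from 2.66% at 0.5 h to 10.3% at 24 h, lay a little below those over all distal peaks at each time. Over all peak classes, scaling to total counts left 8 losses and 0 gains at 2 h in place of 9 and 3, and loess offsets gave 19 and 14 at 24 h in place of 21 and 10. Losses at 2, 6 and 24 h were fewer in every fit without 1 of the libraries of the comparison. Without replicate 1 of 0.5 h only 1 loss was called at that time and without replicate 2 of NT 3, and without replicate 1 of 1 h 6 losses were called at 1 h. Over all classes, leaving out any 1 of the 4 libraries of the comparison left 0 gains at 0.5 h in place of 2 and 0 at 2 h in place of 3. At 1 h 0 gains were called in place of 7 without replicate 1 of 1 h or replicate 2 of NT, and 2 without replicate 1 of NT. At 6 h 1 was called in place of 3 without replicate 1 of 6 h or replicate 2 of NT, and at 24 h the 10 gains became 3 without replicate 1 of 24 h, 2 without replicate 1 of NT and 4 without replicate 2 of NT.

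After OCT4 depletion 10 of 195 distal peaks were lost at 2 h (5.74% over all distal peaks) and 6 gained (2.04%). At 6 h 18 were lost (8.95%) and 16 gained (4.23%), and at 24 h 26 were lost (14%) and 15 gained (6.96%). OCT4-FKBP libraries with the same replicate number deviated together, and with replicate number as a block, over all peak classes, 18 peaks were lost and 16 gained at 2 h instead of 10 and 6, and 39 were gained at 6 h instead of 18. Over all 166430 peaks tested the block raised losses at 2 h from 8480 to 12326 and gains from 3194 to 8607. Gains at 6 h rose from 6859 to 14649. Without replicate 2 of 2 h, 5 peaks were lost and 3 gained at 2 h, and 3 were gained without replicate 1 of NT. NANOG depletion gave 1 distal loss at 2 h (1.06% over all), 1 at 6 h (1.22%) and 5 at 24 h (2.52%). No distal peak was gained in the NANOG-FKBP line at 2, 6 or 24 h (0.0189%, 0.0427% and 0.323% over all) by edgeR or by DESeq2, and 8, 3 and 5 were higher at an unadjusted p below 0.05. Only 1 of the 5 NANOG losses at 24 h was called without replicate 1 of NT or without replicate 3 of 24 h.

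**Figure D1:**
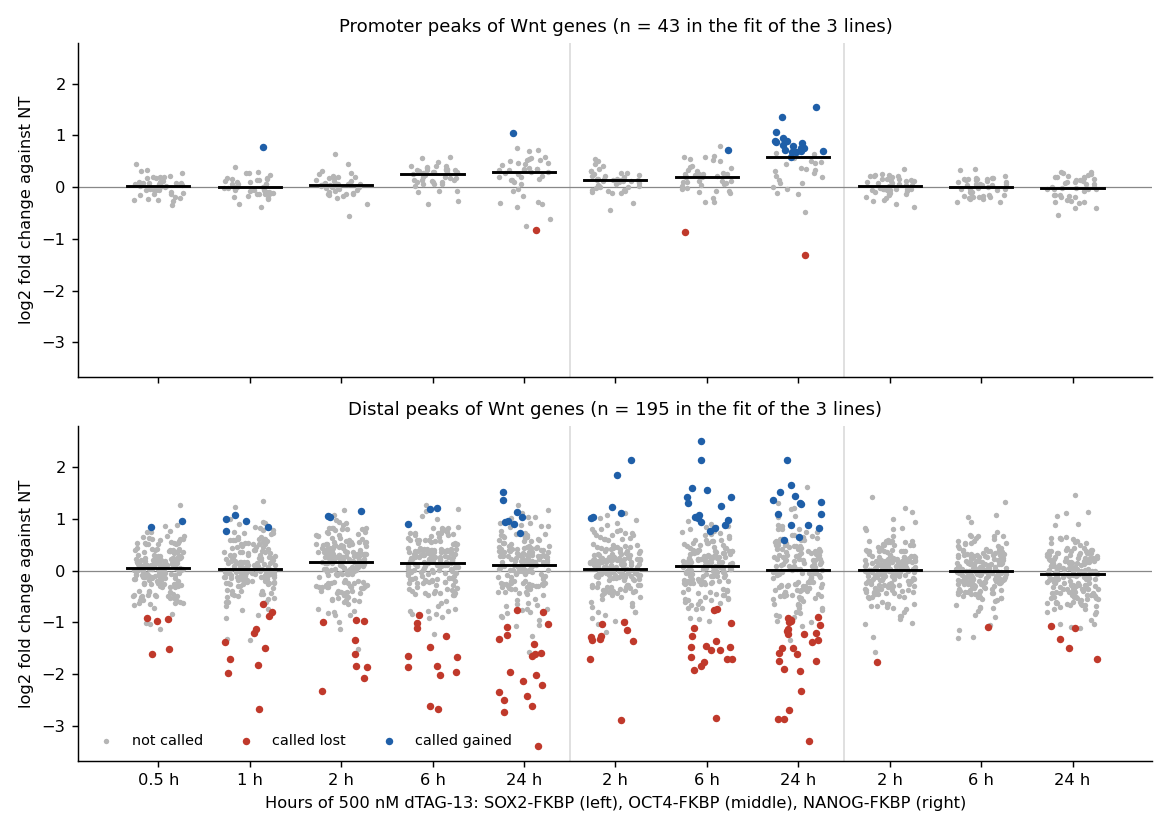
Log2 fold change against NT of each of the 43 promoter and the distal Wnt gene peaks tested, by line and hours of dTAG-13, with lost peaks in red, gained peaks in blue, peaks without a call in grey and a black bar at the median. In the SOX2-FKBP and OCT4-FKBP lines the red points lie among distal peaks from the first time on, and at 24 h of OCT4 depletion 20 promoter peaks are blue.

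The ligand genes lost 1 of 78 distal peaks at 2 h of SOX2 depletion (1.28%, against 5.71% of all distal peaks). At 2 h of OCT4 depletion they lost 1 of 78 as well (1.28%, against 5.74%). In both lines this was the peak 9.6 kb downstream of the Wnt8a start (mm10 chromosome 18, 34551572 to 34552285, intergenic). Wnt8a encodes a ligand of the canonical branch that is made in the primitive streak of the embryo. SOX2-FKBP libraries had 60.4 and 69.3 normalised counts at this peak in NT, 24.6 and 47.5 at 0.5 h, 19.4 and 21.9 at 1 h, 15.0 and 10.4 at 2 h, 12.6 and 8.21 at 6 h and 10.2 and 14.5 at 24 h. OCT4-FKBP libraries had 86.0 and 77.9 in NT, 9.80 and 11.8 at 2 h, 11.7 and 10.6 at 6 h and 15.3 and 6.51 at 24 h. In both lines every dTAG library lay below both NT libraries. The log2 fold change after SOX2 depletion was -0.98 ± 0.28 at 0.5 h (adjusted p = 0.0429), -1.70 ± 0.31 at 1 h (0.000218) and -2.32 ± 0.39 at 2 h (4.97e-05), and after OCT4 depletion it was -2.88 ± 0.37 at 2 h (adjusted p = 5.55e-07) and -2.86 ± 0.42 at 24 h (2.1e-06). The call at 0.5 h did not hold without replicate 1 of 0.5 h (-0.47, adjusted p = 0.82) or without either NT library. In the NANOG-FKBP line the counts were 82.8 and 87.5 in NT and ran from 61.5 to 180 over the 9 dTAG libraries, with log2 fold changes of 0.00, 0.58 and 0.09 at 2, 6 and 24 h (adjusted p of 0.655 or more).

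A weaker Wnt8a peak 17 kb downstream (34559196 to 34559584) was among the few called after NANOG depletion. NANOG-FKBP libraries had 23.9 and 28.6 normalised counts there in NT, 7.60, 13.3 and 6.03 at 2 h, 9.96, 18.4 and 7.17 at 6 h and 7.38, 13.9 and 10.4 at 24 h. All 9 dTAG libraries lay below both NT libraries, and the change was called at 2 h (-1.76 ± 0.46, adjusted p = 0.0453) and at 24 h (-1.49 ± 0.42, 0.0459) but not at 6 h (-1.29 ± 0.42, 0.188). With DESeq2 neither passed (adjusted p = 0.2 and 0.18), and each was lost without replicate 1 or 3 of its own time or without either NT library. After OCT4 depletion the same peak fell by 1.67 at 6 h and by 1.75 at 24 h on the log2 scale (adjusted p = 0.00057 and 0.0028), the former not without replicate 2 of NT (0.052) and the latter not without that library or replicate 1 of 24 h. It had too few counts in the SOX2-FKBP line to enter the fit of 0.5 and 1 h.

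The promoter peak of Wnt8a was the single promoter lost after OCT4 depletion. OCT4-FKBP libraries had 378 and 282 normalised counts in NT, 255 and 227 at 2 h, 214 and 145 at 6 h and 162 and 101 at 24 h. The NT and dTAG libraries did not overlap at any of these times. The change was -0.44 ± 0.24 at 2 h (adjusted p = 0.391), -0.87 ± 0.24 at 6 h (0.0117, but 0.24 without replicate 2 of 6 h and 0.18 without replicate 1 of NT) and -1.30 ± 0.26 at 24 h (0.00024), so that the promoter was called after the distal peak 9.6 kb away had reached its low level, and between 2 and 24 h it fell by 0.86 (0.0237; not called without either 2 h library or without replicate 2 of 24 h).

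Wnt3a, another canonical ligand, which is used to activate the pathway in culture, had an intronic peak 8.5 kb downstream (chromosome 11, 59281803 to 59283421, chosen after its values were seen) that closed slowly in both lines. The SOX2-FKBP counts were 92.4 and 83.7 in NT, 77.7 and 78.7 at 0.5 h, 60.3 and 65.7 at 1 h, 43.0 and 55.5 at 2 h, 24.3 and 31.2 at 6 h and 14.3 and 16.4 at 24 h. The OCT4-FKBP counts were 190 and 171 in NT, 152 and 87.4 at 2 h, 67.8 and 60.8 at 6 h and 29.1 and 26.1 at 24 h. In both lines the libraries of each time lay below both libraries of the time before. No call was made at 2 h after SOX2 depletion (-0.82 ± 0.28, adjusted p = 0.0917) or OCT4 depletion (-0.60 ± 0.25, 0.167), whereas at 24 h the changes were -2.50 ± 0.34 (3.73e-07) and -2.68 ± 0.31 (2.21e-08). The fall from 2 to 24 h was itself called, at -1.68 ± 0.35 (adjusted p = 0.00436) and -2.08 ± 0.32 (1.7e-05). NANOG-FKBP counts were 99.6 and 109 in NT and 82.8, 69.5 and 88.5 at 24 h, and the change of -0.35 ± 0.26 was not called (adjusted p = 0.715). The Wnt3a promoter, whose peak lies within reach of 2 of the genes, was the single promoter lost after SOX2 depletion, at 24 h, from 52.4 and 53.4 normalised counts to 36.7 and 22.2 (-0.83 ± 0.29, adjusted p = 0.0406), and it was not called without replicate 2 of 24 h (-0.51, 0.4), without either NT library or with DESeq2 (0.087).

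Of the 58 distal peaks of receptor genes, 5 were lost at 2 h of SOX2 depletion (8.62%, against 5.71% of all distal peaks) and 11 at 24 h (19%, against 12.1%). These are 5 of the 9 and 11 of the 20 distal losses at the Wnt genes. Target genes lost 4 of 20 distal peaks at 24 h (20%), nuclear effector genes 3 of 36 (8.33%) and ligand genes 2 of 78 (2.56%). Whether receptor genes differ from the others was not tested. One of the receptor gene peaks lost lay in the gene of Fzd3, a receptor known for its part in planar polarity and axon guidance, 16.8 kb downstream of its start in an intron (chromosome 14, 65245268 to 65245799). Its counts in the SOX2-FKBP line were 59.5 and 49.1 in NT, 18 and 19.7 at 0.5 h, 9.68 and 7.82 at 1 h, 12 and 17.4 at 2 h, 9.71 and 19.7 at 6 h and 13.2 and 13.5 at 24 h. Its counts in the OCT4-FKBP line were 79.3 and 94.8 in NT, 77.4 and 55.2 at 2 h, 91.9 and 93.1 at 6 h and 120 and 86.3 at 24 h. In the NANOG-FKBP line they were 60.3 and 72.4 in NT and 59.9 to 134 with dTAG. The low level was reached within 1 h of SOX2 depletion. OCT4-FKBP libraries lay just below NT at 2 h and overlapped with NT at 6 and 24 h, and NANOG-FKBP libraries overlapped with NT at 2 h and lay above it later, without a call in either line. The change after SOX2 depletion was -1.61 ± 0.31 at 0.5 h (adjusted p = 0.00107), -2.67 ± 0.37 at 1 h (2.94e-06) and -2.01 ± 0.34 at 24 h (1.95e-05), and after OCT4 depletion -0.41 ± 0.25 at 2 h (0.466) and 0.25 ± 0.25 at 24 h (0.529). The call at 0.5 h was lost without replicate 1 of 0.5 h (0.14) and without replicate 1 of NT (0.064). The responses of the lines differed at 24 h by -2.26 ± 0.42 (SOX2 minus OCT4, adjusted p = 0.000985), whereas the difference at 2 h, -1.45 ± 0.41, did not pass (0.0618).

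The same gene's promoter moved the other way and later. The Fzd3 promoter peak had 119 and 92.0 normalised counts in NT of the OCT4-FKBP line, 142 and 94.0 at 2 h, 193 and 123 at 6 h and 382 and 228 at 24 h, and 78.1 and 89.5 in NT and 137 and 203 at 24 h in the SOX2-FKBP line. Its gain was called at 24 h in both (1.55 ± 0.27, adjusted p = 2.98e-05, and 1.04 ± 0.28, 0.00743), the latter not without replicate 2 of 24 h or replicate 1 of NT.

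Fzd5, a receptor of canonical ligands, had a peak of 2373 bp in a stretch annotated as untranslated region, 4.1 kb downstream of its start (chromosome 1, 64731671 to 64734043), that was lost in both lines. SOX2-FKBP counts were 369 and 421 in NT, 299 and 315 at 0.5 h, 255 and 271 at 1 h, 183 and 209 at 2 h, 195 and 169 at 6 h and 115 and 139 at 24 h. OCT4-FKBP counts were 384 and 400 in NT, 175 and 179 at 2 h, 156 and 127 at 6 h and 115 and 87.9 at 24 h. NANOG-FKBP counts were 470 and 402 in NT and ran from 425 to 880 with dTAG, where the values of 701 and above were all from the shallow replicate 2. NT and dTAG libraries were apart at every time in the first 2 lines. At 2 h the changes were -0.99 ± 0.26 after SOX2 depletion (adjusted p = 0.015, but 0.14 without replicate 1 of 2 h and 0.092 without replicate 2 of NT) and -1.14 ± 0.26 after OCT4 depletion (0.00288). At 24 h they were -1.61 ± 0.27 (2.22e-05) and -1.93 ± 0.29 (2.01e-06). A weaker intronic peak 14.4 kb downstream of Fzd5 (64723014 to 64723908, chosen after its values were seen) was lost after OCT4 depletion alone by the test, from 31.7 and 26.5 normalised counts in NT to 11.8 and 6.57 at 2 h (-1.70 ± 0.36, adjusted p = 0.00142), while the SOX2 change was -0.58 ± 0.39 (0.562); the difference between the lines, 1.12 ± 0.54, was not called (0.508).

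At Fzd8, which encodes another receptor of canonical ligands, 3 peaks followed different courses. All lie on chromosome 18, at 9197101 to 9198168 (14.6 kb upstream), at 9214701 to 9215268 (3.0 kb downstream) and at 9216308 to 9216553 (4.3 kb downstream), the latter pair in untranslated sequence. At the upstream peak the SOX2-FKBP counts were 99.5 and 117 in NT, 37.0 and 46.9 at 2 h and 12.2 and 22.2 at 24 h, and the OCT4-FKBP counts were 96.0 and 112 in NT, 130 and 118 at 2 h, 110 and 105 at 6 h and 29.1 and 50.5 at 24 h. The site therefore closed by 2 h in one line, where the change was -1.33 ± 0.27 (adjusted p = 0.000735), and was still at NT level at 6 h in the other (0.26 ± 0.24 at 2 h, 0.716; 0.05 at 6 h). At 24 h it was lost in both (-2.61 ± 0.31, 2.52e-08, and -1.38 ± 0.29, 0.000326). The difference between the lines at 2 h was -1.59 ± 0.36 (adjusted p = 0.00992), or 0.055 without replicate 1 of OCT4-FKBP NT and 0.075 without replicate 1 of SOX2-FKBP 2 h. NANOG-FKBP counts at this peak stayed between 88.1 and 147 in all 11 libraries.

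The Fzd8 peak 3.0 kb downstream was lost in all 3 lines by 24 h, as was the Fzd10 peak 7.2 kb upstream described below. SOX2-FKBP counts there were 136 and 136 in NT, 83.4 and 59.0 at 0.5 h, 35.0 and 39.0 at 2 h and 23.4 and 26.1 at 24 h. NANOG-FKBP counts were 147 and 170 in NT, 65.9, 133 and 107 at 2 h, 62.8, 80.8 and 88.4 at 6 h and 71.3, 78.7 and 75.5 at 24 h. OCT4-FKBP counts were 106 and 113 in NT, 63.7 and 71.6 at 2 h and 39.8 and 37.5 at 24 h. Every dTAG library of these lay below every NT library of its line. The change after SOX2 depletion was already -0.94 at 0.5 h (adjusted p = 0.00264, but 0.07 without replicate 2 of 0.5 h) and reached -2.43 ± 0.28 at 24 h, after OCT4 depletion it was -0.68 at 2 h (0.0776) and -1.49 at 24 h (8.35e-05), and after NANOG depletion -0.81 at 2 h (0.111) and -1.09 ± 0.24 at 6 h (0.00765), with -1.1 ± 0.23 (0.00327) by 24 h. The 6 h call after NANOG depletion was lost without replicate 1 of 6 h or replicate 2 of NT, and the 24 h call held without any 1 library.

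At the small Fzd8 peak 4.3 kb downstream the lines moved in opposite directions. OCT4-FKBP counts rose from 25.1 and 19.8 in NT to 54.9 and 42.1 at 2 h, 85.4 and 44.7 at 6 h and 84.3 and 40.7 at 24 h. SOX2-FKBP counts went from 23.1 and 33.2 in NT to 12 and 6.94 at 2 h, 3.89 and 9.03 at 6 h and 5.09 and 0 at 24 h, and NANOG-FKBP counts from 56.1 and 55.5 in NT to 17.7, 26.6 and 18.1 at 2 h and 22.1, 23.2 and 7.81 at 24 h. No library with dTAG overlapped the NT libraries of its line in these groups. The OCT4 gain was called at 6 h (1.55 ± 0.36, adjusted p = 0.0017) and 24 h (1.51 ± 0.39, 0.00333), neither without replicate 1 of that time or replicate 2 of NT. The SOX2 loss was called at 1 h (not with DESeq2, 0.15, nor without replicate 1 of 1 h, 0.34, or replicate 2 of NT, 0.12), at 6 h (not without replicate 1 of 6 h, 0.15, or replicate 2 of NT, 0.082) and at 24 h (-3.38 ± 0.65, adjusted p = 0.000169) and the NANOG loss at 24 h (-1.71 ± 0.41, 0.0117, not without replicate 3 of 24 h or either NT library). SOX2 minus OCT4, the difference was -2.64 ± 0.62 at 2 h (adjusted p = 0.0147, but 0.06 to 0.11 without replicate 1 of OCT4-FKBP 2 h or replicate 2 of SOX2-FKBP 2 h or NT) and -4.89 ± 0.76 at 24 h (8.15e-05), and the latter held under every other setting and without any 1 library. Because the SOX2 24 h libraries held few fragments at this peak, the size of that fold depends on the prior count of the fit.

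**Figure D2:**
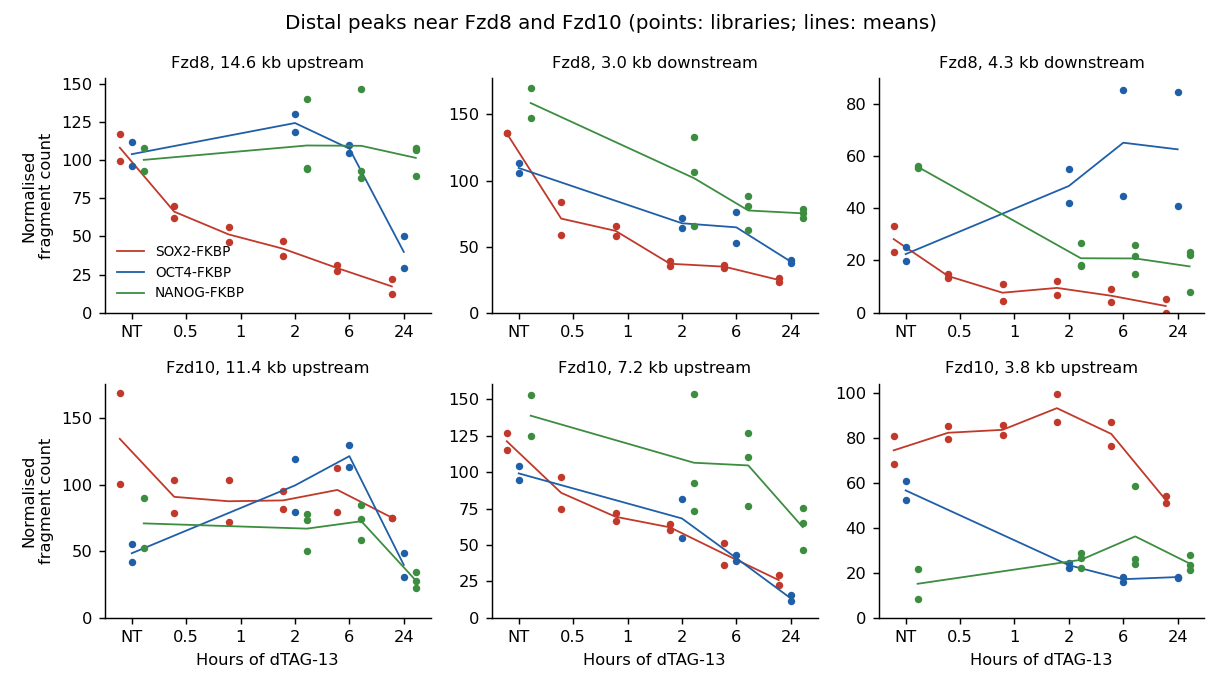
Normalised fragment counts per library at 3 peaks of Fzd8 (top) and 3 of Fzd10 (bottom) against hours of dTAG-13, with a line through the mean of each group and 1 colour per degron line. The Fzd8 peak 14.6 kb upstream falls by 2 h in SOX2-FKBP cells and after 6 h in OCT4-FKBP cells, and the peak 4.3 kb downstream rises in OCT4-FKBP cells and falls in the other two.

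Fzd10, another Frizzled receptor gene, also had neighbouring upstream peaks that responded differently, on chromosome 5 in sequence annotated as intron or non-coding exon. The peak 7.2 kb upstream (128593110 to 128594362) closed in all 3 lines by 24 h: SOX2-FKBP counts were 127 and 115 in NT, 60.0 and 64.2 at 2 h and 29.5 and 22.2 at 24 h. OCT4-FKBP counts were 94.4 and 104 in NT, 54.9 and 81.5 at 2 h, 39.1 and 42.8 at 6 h and 15.3 and 11.4 at 24 h, and NANOG-FKBP counts were 153 and 125 in NT and 75.4, 46.3 and 65.1 at 24 h. These dTAG libraries all lay below the NT libraries of their line. The changes at 24 h were -2.21 ± 0.30 (adjusted p = 5.56e-07), -2.86 ± 0.37 (1.55e-07) and -1.07 ± 0.26 (0.0121, but 0.25 without replicate 1 of NANOG-FKBP NT and 0.066 without replicate 3 of 24 h), and at 2 h -0.95 ± 0.27 after SOX2 depletion (0.0262, but 0.064 with DESeq2 and not called without either 2 h library or replicate 1 of NT) and -0.52 after OCT4 depletion (0.323).

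The Fzd10 peak 3.8 kb upstream (128596930 to 128597199) was lost after OCT4 depletion, from 61.0 and 52.5 normalised counts in NT to 24.5 and 22.3 at 2 h and 18.4 and 17.9 at 24 h. SOX2-FKBP counts were 68.4 and 80.8 in NT, 87.0 and 99.8 at 2 h and 50.9 and 54.1 at 24 h. The OCT4-FKBP groups were far apart, and in SOX2-FKBP cells both 2 h libraries lay above NT and both 24 h libraries below. The OCT4 change at 2 h was -1.27 ± 0.29 (adjusted p = 0.00299, but 0.074 without replicate 2 of 2 h) and the SOX2 change 0.36 ± 0.26 without a call, and their difference, 1.62 ± 0.39, was called (0.0178), although not when any of 7 of the 8 libraries was left out. At the peak 11.4 kb upstream (128588957 to 128590097) OCT4-FKBP counts first rose, from 41.8 and 55.3 in NT to 120 and 79.5 at 2 h and 113 and 130 at 6 h, and were back at 30.7 and 48.9 at 24 h. The change was 1.01 ± 0.28 at 2 h (adjusted p = 0.0167, but 0.33 without replicate 1 of 2 h and 0.19 without replicate 1 of NT), 1.31 ± 0.27 at 6 h (0.000499) and -0.29 at 24 h (0.586), and from 2 to 24 h it was -1.30 (0.00434; not called without replicate 1 of 24 h or of 2 h). SOX2-FKBP counts were 100 and 169 in NT, 95.0 and 81.6 at 2 h and 75.4 and 75.3 at 24 h, a change of -0.57 at 2 h (0.321) and -0.79 at 24 h (0.0456, but 0.094 with DESeq2 and not called without either 24 h library or replicate 2 of NT). The lines differed at 2 h by -1.58 ± 0.39 (adjusted p = 0.0229), though not without replicate 1 of OCT4-FKBP 2 h or NT or replicate 2 of SOX2-FKBP 2 h or NT. NANOG-FKBP counts went from 89.8 and 52.2 in NT to 34.4, 27.8 and 22.1 at 24 h (-1.32 ± 0.32, adjusted p = 0.0133, but 0.51 without replicate 1 of NT and 0.13 without replicate 3 of 24 h).

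Fzd9, which lies in the region deleted in Williams syndrome in humans, had a peak 4.6 kb downstream (chromosome 5, 135246477 to 135246846, intergenic) that was lost after OCT4 depletion, from 69.3 and 81.9 normalised counts in NT to 26.5 and 47.3 at 2 h, 24.8 and 29.8 at 6 h and 15.3 and 14.7 at 24 h. Every dTAG library lay below NT. The change was -1.0 ± 0.31 at 2 h (adjusted p = 0.0407, but 0.14 with DESeq2 and not called without replicate 1 of 2 h or either NT library) and -2.32 ± 0.41 at 24 h (3.38e-05). The SOX2 change at 2 h was -0.55 without a call (0.643).

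The nuclear effector genes lost 2 of 36 distal peaks at 2 h of SOX2 depletion (5.56%, against 5.71% of all distal peaks) and 4 at 2 h of OCT4 depletion (11.1%, against 5.74%), and all of these lay at Lef1 and Tcf7l1. LEF1 acts mainly as the activating partner of β-catenin, in contrast to TCF7L1. At the peak 8.1 kb upstream of Lef1 (chromosome 3, 131101947 to 131102738, intergenic) SOX2-FKBP counts were 106 and 131 in NT, 30.3 and 60.7 at 0.5 h, 25.8 and 45.4 at 1 h, 26 and 28.6 at 2 h, 19.4 and 17.3 at 6 h and 18.3 and 16.4 at 24 h. OCT4-FKBP counts were 379 and 246 in NT, 115 and 140 at 2 h, 95.8 and 94.4 at 6 h and 44.4 and 17.9 at 24 h. NANOG-FKBP counts were 209 and 202 in NT and 166 to 667 with dTAG, with 426, 440.5 and 667 in the shallow replicate 2 of the 3 times and 217 or less in the other libraries. In SOX2-FKBP and OCT4-FKBP cells all dTAG libraries lay below NT. The SOX2 change was -1.51 ± 0.25 at 0.5 h (adjusted p = 0.000167, but -0.99 and 0.18 without replicate 1 of 0.5 h), -2.08 ± 0.47 at 2 h (0.00264) and -2.73 ± 0.51 at 24 h (8.69e-05). The OCT4 change was -1.27 ± 0.38 at 2 h (0.0277, but 0.27 with DESeq2 and not called without either 2 h library or replicate 1 of NT) and -3.29 ± 0.47 at 24 h (1.21e-06), a further fall from 2 h of 2.01 on the log2 scale (0.00387; not called without replicate 2 of 24 h). The intronic Lef1 peak 7.7 kb downstream (131117351 to 131118461, chosen after its values were seen), which holds the composite element, had 44.3 and 37.8 normalised counts in NT of the OCT4-FKBP line, 21.6 and 11.8 at 2 h and 15.3 and 11.4 at 24 h. It was called in that line (-1.33 ± 0.33 at 2 h, adjusted p = 0.00632) and not at 2 h of SOX2 depletion (-0.23, 0.868), but the lines did not differ by the test (1.1 ± 0.47, 0.377).

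Tcf7l1 had an intronic peak 19.0 kb downstream (chromosome 6, 72769874 to 72770561) that fell in both lines and an intergenic one 5.9 kb upstream (72794833 to 72795889) that fell with OCT4. At the former, SOX2-FKBP counts were 79.0 and 98.1 in NT, 46.4 and 50.8 at 0.5 h, 31.2 and 39.1 at 1 h, 53.0 and 35.6 at 2 h, 46.6 and 40.2 at 6 h and 23.4 and 21.3 at 24 h, and OCT4-FKBP counts were 87.7 and 86.9 in NT, 23.5 and 42.1 at 2 h, 24.1 and 26.7 at 6 h and 18.4 and 27.7 at 24 h. NANOG-FKBP counts were 84.2 and 116 in NT and 95.6 to 185 with dTAG. NT and dTAG libraries were apart in SOX2-FKBP and OCT4-FKBP cells and overlapped in NANOG-FKBP cells. The change at 2 h was -0.97 ± 0.28 (adjusted p = 0.0292, but 0.31 without replicate 2 of 2 h and 0.18 without replicate 2 of NT) and -1.36 ± 0.28 (0.000727, but 0.061 without replicate 1 of 2 h), and at 24 h -1.95 ± 0.31 (8.83e-06) and -1.91 ± 0.33. At the latter peak OCT4-FKBP counts were 204 and 206 in NT, 88.2 and 110 at 2 h, 91.9 and 98.1 at 6 h and 112 and 92.8 at 24 h. The change of -1.03 ± 0.21 was complete at 2 h (adjusted p = 0.000962) and was -0.98 at 24 h (0.00111), and these calls held under every setting tried. SOX2-FKBP counts at 2 h were 49.0 and 69.4 against 68.4 and 83.7, a change of -0.32 (0.651), and the lines did not differ by the test (0.71 ± 0.33, 0.45).

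**Figure D3:**
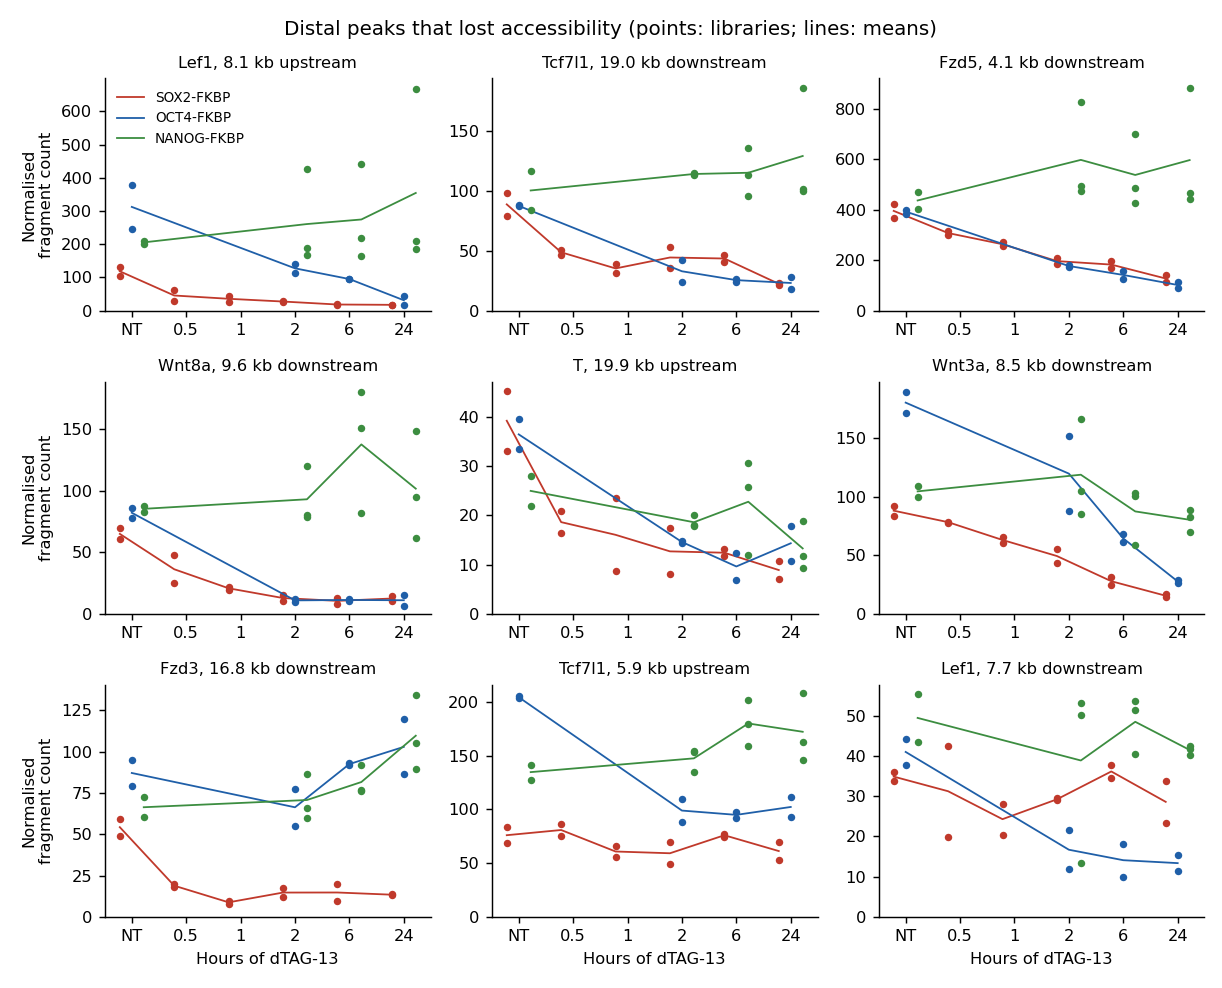
Normalised fragment counts per library at 9 distal peaks that were lost, against hours of dTAG-13, with a line through the mean of each group and 1 colour per degron line; the lines are offset sideways and times are evenly spaced, not to scale. At the Wnt8a peak SOX2-FKBP and OCT4-FKBP libraries are at 15.3 or less from 2 h on while NANOG-FKBP libraries stay at 61.5 or more, and the Fzd3 peak falls in SOX2-FKBP cells and has no call in the other lines.

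Tcf7, the gene of TCF1, had an intergenic peak 11.3 kb upstream (chromosome 11, 52293798 to 52294918) that opened after OCT4 depletion. Its OCT4-FKBP counts were 20.0 and 29.4 in NT, 48.0 and 59.8 at 2 h, 63.9 and 70.8 at 6 h and 69.0 and 87.9 at 24 h, without overlap between NT and dTAG. The gain was 1.11 ± 0.26 at 2 h (adjusted p = 0.00386, but 0.096 without replicate 2 of 2 h and 0.098 without replicate 1 of NT) and 1.65 ± 0.27 at 24 h (1.25e-05). In SOX2-FKBP cells the change at 24 h was 0.25 without a call, and the lines differed by -1.39 ± 0.39 (adjusted p = 0.0379), which did not hold with DESeq2 (0.062) or when any of 6 of the 8 libraries was left out. A Tcf7 peak 3.6 kb upstream (chosen after its values were seen) went the other way after SOX2 depletion, from 161 and 153 normalised counts in NT to 70.3 and 82.1 at 24 h (-1.02 ± 0.23, adjusted p = 0.00122), and OCT4-FKBP counts there were 129 and 145 in NT and 146 and 134 at 24 h.

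Among the target genes, T encodes Brachyury, the mesoderm transcription factor that is induced by Wnt signals in the primitive streak. A peak 19.9 kb upstream of T (chromosome 17, 8414177 to 8414877, chosen after its values were seen) was lost early in both lines. SOX2-FKBP counts were 45.3 and 33.2 in NT, 20.8 and 16.4 at 0.5 h, 8.61 and 23.5 at 1 h, 8 and 17.4 at 2 h and 7.13 and 10.6 at 24 h. OCT4-FKBP counts were 33.4 and 39.5 in NT, 14.7 and 14.5 at 2 h, 12.4 and 6.83 at 6 h and 10.7 and 17.9 at 24 h. No dTAG library of these reached the lowest NT library. The change at 2 h was -1.60 ± 0.38 after SOX2 depletion (adjusted p = 0.00451) and -1.32 ± 0.35 after OCT4 depletion (0.0112). A peak 18.8 kb upstream, about 1 kb away and also chosen after its values were seen, was gained at 2 h of OCT4 depletion (28.4 and 25.4 normalised counts in NT, 60.8 and 49.9 at 2 h; 1.04 ± 0.27, adjusted p = 0.00831). The T promoter itself was not called at any time in any line, with log2 fold changes at 24 h of -0.39 after SOX2 and 0.09 after OCT4 depletion.

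Axin2, a feedback inhibitor that is widely read as the universal reporter of the pathway, had 1 distal gain after SOX2 depletion among the peaks named by rule, 13.4 kb upstream (chromosome 11, 108906653 to 108907185). Counts there were 54.2 and 53.4 in NT, 143 and 104 at 6 h and 151 and 82.1 at 24 h, with every one of these dTAG libraries above NT, and the gain was 1.20 at 6 h (adjusted p = 0.00893) and 1.13 at 24 h (0.0104), neither of them without replicate 1 of that time or either NT library. A peak 2.8 kb upstream of Axin2 (chosen after its values were seen) was gained at 6 h of OCT4 depletion (0.95 ± 0.27, adjusted p = 0.0119; 45.9 and 39.5 normalised counts in NT, 89.3 and 74.5 at 6 h) and lost at 24 h of SOX2 depletion (-1.09 ± 0.36, 0.031; 27.5 and 50.5 in NT, 18.3 and 16.4 at 24 h). Sp5, a repressor induced by Wnt, had a distal peak 10.0 kb downstream (chosen after its values were seen) that was lower at 1 h of SOX2 depletion (184 and 150 in NT, 121 and 76.7 at 1 h; -0.80 ± 0.21, adjusted p = 0.0119) and at 24 h (-0.75 ± 0.26, 0.0454).

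Of the 9 distal peaks lost at 2 h after SOX2 depletion and the 10 lost after OCT4 depletion, 5 were the same, that is 55.6% of the former and 50% of the latter. Over all distal peaks, 4111 were lost in both lines at 2 h, 50.3% of the 8167 lost with SOX2 and 50.1% of the 8205 lost with OCT4. The 5 were the peaks described above at Wnt8a (9.6 kb downstream), Fzd5 (4.1 kb), Lef1 (8.1 kb upstream), Tcf7l1 (19.0 kb downstream) and T (19.9 kb upstream). Those lost with SOX2 alone by the test were at Fzd3, Fzd8 (14.6 kb upstream and 3.0 kb downstream) and Fzd10 (7.2 kb upstream), and those lost with OCT4 alone at Fzd5 (14.4 kb), Fzd9, Fzd10 (3.8 kb upstream), Lef1 (7.7 kb) and Tcf7l1 (5.9 kb upstream). DESeq2 called 7 distal losses at 2 h in each line, where edgeR called 9 with SOX2 and 10 with OCT4. A test of the difference itself was passed at 2 h by 4 of the 195 distal peaks, against 1.76% of all distal peaks: the Fzd8 peaks at 14.6 kb upstream and 4.3 kb downstream and the Fzd10 peaks at 11.4 and 3.8 kb upstream. With replicate number as a block 11 passed. Over all 166430 peaks tested the block raised the negative differences from 1991 to 5182 and the positive ones from 623 to 2131. The SOX2 and OCT4 comparisons share no libraries.

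**Figure D4:**
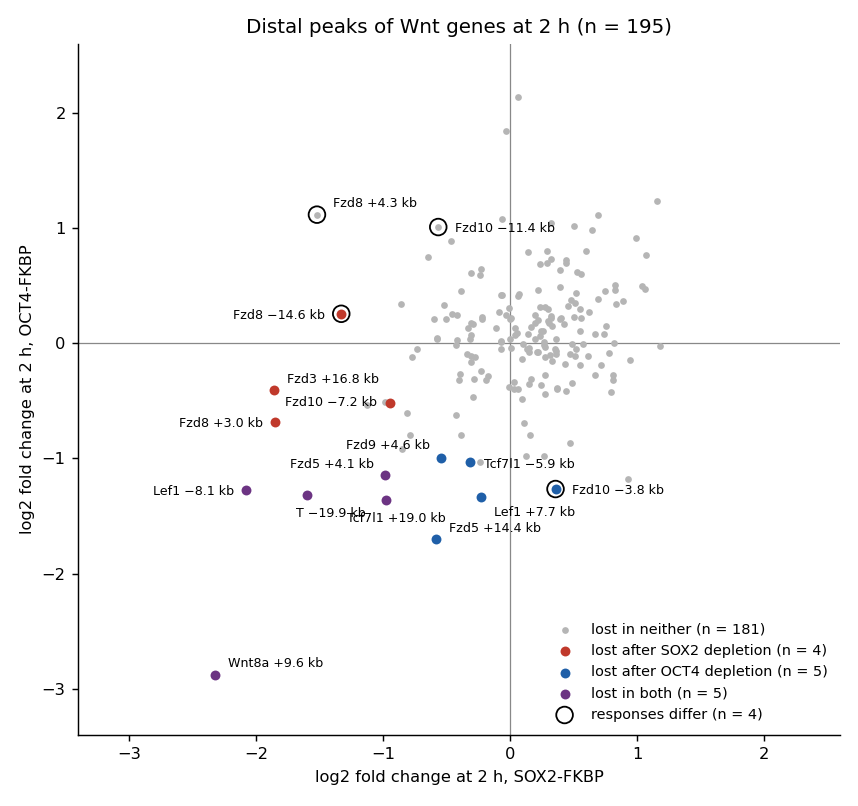
Log2 fold change at 2 h after SOX2 depletion (horizontal axis) against that after OCT4 depletion (vertical axis) for the 195 distal Wnt gene peaks, coloured by where they were lost, with a ring around the 4 peaks whose responses differed. The 5 peaks lost in both lie low on both axes, and 181 were lost in neither.

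At 24 h, 5 of 195 distal peaks differed between the lines, against 3.05% of all distal peaks: those described at Fzd3 (16.8 kb), Fzd8 (4.3 kb) and Tcf7 (11.3 kb upstream), and 2 others chosen after their values were seen. The peak 1.2 kb upstream of Wnt16, a ligand known for its part in bone, was at 8.35 and 8.47 normalised counts in NT of the OCT4-FKBP line and at 27.6 and 47.2 at 24 h (2.14 ± 0.43, adjusted p = 0.000205), while the SOX2-FKBP change was -0.63, a difference of -2.78 ± 0.67 (0.0134). The peak 12.3 kb upstream of Fzd4, the Norrin receptor, fell after SOX2 depletion from 63.1 and 49.1 normalised counts in NT to 26.5 and 18.4 at 24 h (-1.32 ± 0.34, adjusted p = 0.00413) against a change of 0.74 after OCT4 depletion, a difference of -2.06 ± 0.55 (0.0261). Of the peaks lost at 24 h in any class, 21 after SOX2 and 27 after OCT4 depletion, 10 were shared (47.6% and 37.0%, against 61.5% and 52.8% over all peaks).

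Calls at 2 h were compared with those at 24 h. All 9 of the 2 h losses after SOX2 depletion and all 10 after OCT4 depletion were called lost again at 24 h, whereas 0 of the 3 gains and 1 of the 6 gains were called again, by edgeR. Over all distal peaks 95% of the SOX2 and 89.3% of the OCT4 losses at 2 h were called again, and 39.4% and 34.6% of the gains. Both times were set against the same NT libraries, so a repeated call is not independent of the first, and the 3 SOX2 gains were not called with DESeq2 or without any 1 of the libraries. Some of the 2 h losses in each line were also not called when a library was left out. The gain that came back was the Tcf7 peak 11.3 kb upstream. The Wnt6 peak 7.4 kb downstream, in an intron and within reach of 2 of the genes, was gained at 2 h in both lines and had returned by 24 h in one (it and the other gains in this paragraph were chosen after their values were seen). Its OCT4-FKBP counts were 24.2 and 49.1 in NT, 67.6 and 108 at 2 h, 55.4 and 73.3 at 6 h and 23.0 and 19.5 at 24 h, and its SOX2-FKBP counts were 47.9 and 50.5 in NT, 99.0 and 116 at 2 h and 97.8 and 85 at 24 h. The gains at 2 h were 1.24 ± 0.33 (adjusted p = 0.0111) and 1.15 ± 0.34 (0.0298), and the OCT4-FKBP level fell by 2.05 from 2 to 24 h (0.000496). Gains at 2 h of OCT4 depletion at the ligand genes Wnt3a (17.1 kb downstream, 4.18 and 3.95 normalised counts in NT, 19.6 and 17.1 at 2 h) and Wnt7b (13 kb downstream, 4.18 and 2.82 in NT, 9.80 and 14.5 at 2 h) were of weak peaks.

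Between 2 and 24 h, 8 of 195 distal peaks changed after SOX2 depletion, against 3.07% of all distal peaks, but leaving out any 1 of the libraries left 0 to 2 over all classes. After OCT4 depletion 21 distal peaks changed (12.8% over all), of which 16 went down, and 9 of 43 promoter peaks (23.9% over all), of which 8 went up. Over all 166430 peaks tested a replicate block raised the falls in this line from 13729 to 20199 and the rises from 10127 to 18280. With replicate number as a block 69 instead of 32 changed over all classes, and without replicate 1 of 24 h 8 did and without replicate 2 of 2 h 9.

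Distal gains at 24 h included peaks at several receptor genes. The peak 1.5 kb upstream of Lrp5 (chromosome 19, 3687586 to 3688311) had 79.9 and 83.7 normalised counts in NT of the SOX2-FKBP line, 153 and 137 at 6 h and 231 and 187 at 24 h. In the OCT4-FKBP line it had 41.8 and 23.2 in NT, 59.8 and 46.0 at 2 h, 119 and 72.0 at 6 h and 98.1 and 71.6 at 24 h. Both lines were above NT at 24 h without overlap. The gains at 24 h were 1.37 ± 0.28 (adjusted p = 0.000412) and 1.44 (0.000949), the latter not called without replicate 2 of NT. The peak 5.8 kb downstream of Fzd10 rose in both lines, from 65.7 and 57.7 normalised counts to 125 and 114 (0.96, adjusted p = 0.00489, but 0.068 without replicate 1 of 24 h and not called without either NT library) and from 61.0 and 67.7 to 139 and 134 (1.09, 0.000773), so that the same gene lost upstream sites and gained a downstream one. A peak in the coding exon of Fzd7, 1.5 kb downstream of its start, rose with OCT4 depletion from 29.2 and 26 to 61.3 and 79.8 (1.37, adjusted p = 0.00141). At Wnt10a, 3.3 kb downstream, SOX2-FKBP counts rose from 46.2 and 51.9 to 94.7 and 86.0 (0.91, adjusted p = 0.0165, but 0.13 without replicate 1 of 24 h and not called without either NT library). Of the peaks of any class gained at 24 h, 10 after SOX2 and 38 after OCT4 depletion, 4 were shared (40% and 10.5%, against 38% and 17.1% over all peaks): the Fzd3 promoter, the Lrp5 and Fzd10 peaks just described, and a peak 19.9 kb downstream of Fzd2 at another gene's start. The last of these was not called after SOX2 depletion with DESeq2 (0.82 and an adjusted p of 0.063 in place of 0.04 with edgeR) or without any 1 of the 4 libraries (0.082 to 0.29), nor after OCT4 depletion without replicate 2 of 24 h (0.27) or replicate 1 of NT (0.058).

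Few of the Wnt gene promoters were called before 24 h. At 0.5 h of SOX2 depletion no promoter peak was called by edgeR or DESeq2 and none had an unadjusted p below 0.05 (0.656% of all promoter peaks were lost and 0.0522% gained). At 1 h none was lost (1.32% over all) and 1 of 43 was gained (0.439% of all promoter peaks), the Wnt7b promoter 16 kb downstream of the gene's outermost start (0.78, adjusted p = 0.0342, but 0.28 with DESeq2 and not called without any of the 4 libraries). At 2 and 6 h no promoter was called after SOX2 depletion, with 1 higher at an unadjusted p below 0.05 each time, nor at 2 h after OCT4 depletion, again with 1 higher, and DESeq2 called none of them. Over all promoter peaks 1.11% were lost and 0.213% gained at 2 h of SOX2 depletion, 1.58% and 0.674% at 6 h, and 1.17% and 1.18% at 2 h of OCT4 depletion. At 6 h of OCT4 depletion 1 was lost, that of Wnt8a (2% of all promoter peaks), and 1 gained, that of Wnt16 (3.45%; 118 and 176 normalised counts in NT, 257 and 225 at 6 h; 0.71, adjusted p = 0.0191, but 0.15 without replicate 1 of 6 h and 0.34 without replicate 1 of NT). At 24 h of SOX2 depletion 1 of 43 was lost, that of Wnt3a (3.18%), and 1 gained, that of Fzd3 (7.45%). After NANOG depletion edgeR and DESeq2 called no promoter at 2, 6 or 24 h, and 0, 0 and 1 had an unadjusted p below 0.05. Over all promoter peaks 0.188%, 0.235% and 0.602% were lost at these times and 0%, 0% and 0.0726% gained.

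At 24 h of OCT4 depletion 20 of 43 promoter peaks were gained, against 34.5% of all promoter peaks, and 1 was lost, against 4.64%. They included 10 of the 12 receptor promoters (Fzd1 to Fzd9 and Lrp6), 5 of 19 ligand promoter peaks, 2 of 6 at nuclear effectors and 3 of 5 at target genes. Counts at the Fzd4 promoter went from 357 and 348 in NT to 737 and 542 (0.88, adjusted p = 0.00208), at that of Wnt1 from 56.8 and 52.5 to 127 and 97.7 (1.06, 0.00168) and at that of Axin2 from 493 and 417 to 846 and 622 (0.71 ± 0.21, 0.0107). The other Axin2 promoter peak, 2.8 kb downstream, changed by -0.14 without a call. At the Sp5 promoter counts went from 246 and 160 to 472 and 230 (0.82, adjusted p = 0.0169), at that of Lgr5, the receptor for R-spondins, from 205 and 180 to 400 and 239 (0.75, 0.0175), and at that of Tcf7 from 139 and 137 to 250 and 194 (0.70, 0.0142). Among the other effectors Tcf7l2 was called (0.58, 0.042), and Tcf7l1 (0.00), Lef1 (0.35, 0.328), Ctnnb1 (0.56, 0.0533) and the scaffold Axin1 (0.38, 0.345) were not. The 24 h library of replicate 1 was the higher in each of the pairs given, and without it 3 gains were called; 6 were called without replicate 2 of NT, 13 without replicate 1 of NT and 22 without replicate 2 of 24 h. Loess offsets left 11 gains and 2 losses, and scaling to total counts 14 gains. Besides the loss at Wnt8a, the gain at Fzd3 was the promoter call that held under every setting and without any 1 library.

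These promoters are rich in G and C, and that property moved with the result. The median log2 fold change at 24 h of OCT4 depletion was 0.58 over the 43 peaks and 0.454 over all promoter peaks, and 38 of the 43 were above 0. Over the 8078 promoter peaks whose GC content was 62 to 72.75%, the interquartile range of the Wnt promoters (median 67%), 51.5% were gained and the median was 0.63. With the replicate block and offsets fitted to GC content, 9 of the Wnt promoters were gained and 3 lost, the median was 0.0316 and 23 of 43 were above 0, so the direction of the group as a whole depends on that correction. The Wnt7b promoter peak 16 kb downstream, also gained at 24 h of OCT4 depletion, changed by 1.35 in the main fit and by 1.56 with this correction. After SOX2 depletion the median at 24 h was 0.29 over the Wnt promoters and 0.317 over all. The part of GC content in these gains was not tested beyond these fits.

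**Figure D5:**
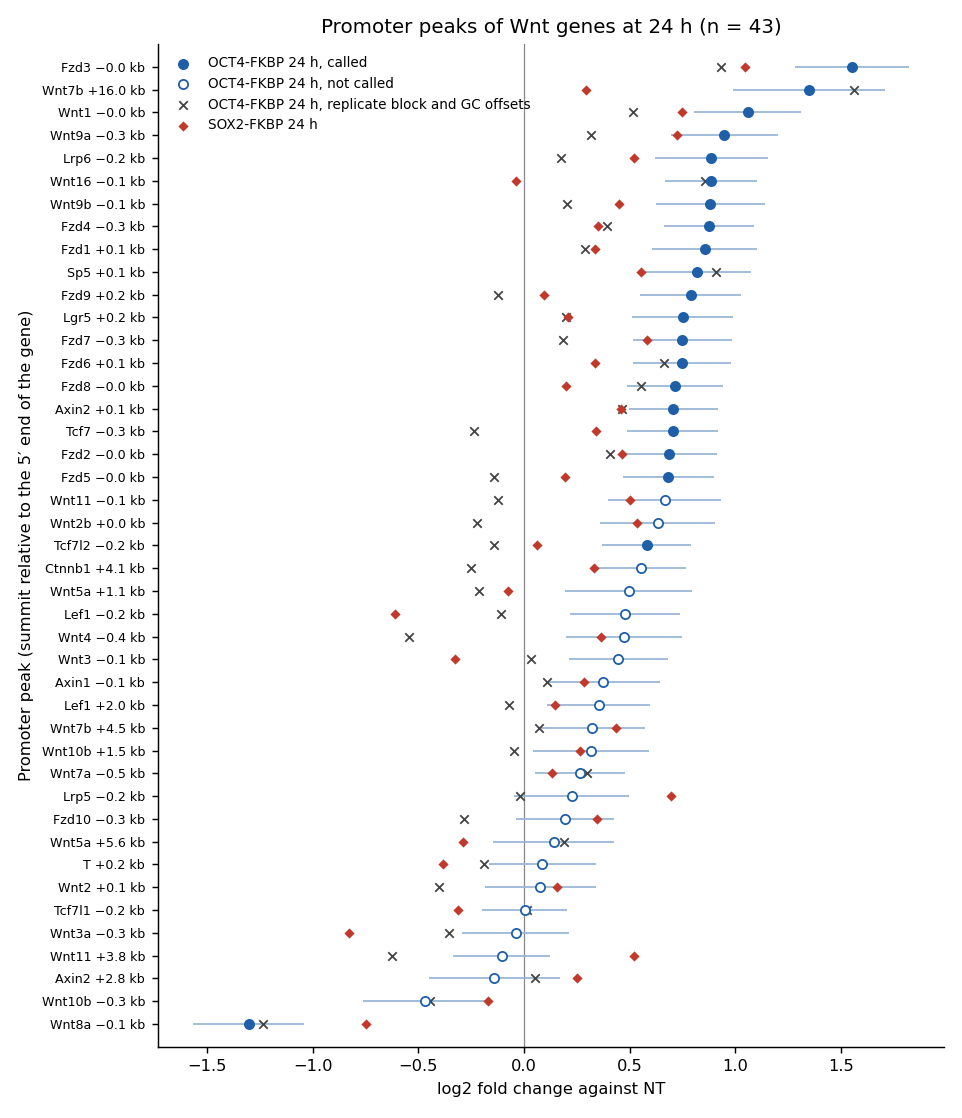
Log2 fold change at 24 h of OCT4 depletion for each of the 43 promoter peaks (points, filled where called, with the standard error as bars), the same after a replicate block and GC offsets (crosses) and the change at 24 h of SOX2 depletion (red diamonds). The points of 38 of the 43 lie to the right of 0 and the crosses of 23, the cross is nearer to 0 than the point at 32, and the Wnt8a promoter is the one called point to the left.

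The ligands Wnt2, Wnt2b, Wnt3 and Wnt7a and the scaffold Axin1 had no call at any peak, time or line, and 102 peaks were called at least once. Over all distal peaks of the Wnt genes the median log2 fold change at 24 h was 0.119 after SOX2 depletion (0.000 over all distal peaks) and 0.008 after OCT4 depletion (-0.086 over all).

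The other 50 genes of the pathway on a fixed list, such as secreted inhibitors, ligand-processing enzymes and ubiquitin ligases, had 355 peaks, of which 338 were tested. Of their 245 distal peaks 6 were lost and 2 gained at 2 h of SOX2 depletion (2.45 and 0.816%, against 5.71 and 0.633% of all distal peaks), and 18 and 11 at 24 h (7.35 and 4.49%, against 12.1 and 4.44%). After OCT4 depletion 8 were lost and 6 gained at 2 h (3.27 and 2.45%, against 5.74 and 2.04%) and 18 and 19 at 24 h (7.35 and 7.76%, against 14 and 6.96%), and 8 and 1 were called at 24 h of NANOG depletion (3.27 and 0.408%, against 2.52 and 0.323%). Of their 54 promoter peaks 23 were gained and 1 lost at 24 h of OCT4 depletion (42.6 and 1.85%, against 34.5 and 4.64% of all promoter peaks), and 3 were gained and 2 lost at 24 h of SOX2 depletion (5.56 and 3.7%, against 7.45 and 3.18%). The largest loss at 2 h was 2.7 kb upstream of Notum, which encodes a deacylase that inactivates Wnt ligands, at -2.93 ± 0.46 after SOX2 depletion (adjusted p = 2.14e-05) against 0.24 ± 0.36 after OCT4 depletion (0.853). At Porcn, whose product attaches the lipid that Wnt ligands need, a peak 13.4 kb upstream fell at 2 h with SOX2 (-1.30 ± 0.24, adjusted p = 0.000179), and at 2 h with OCT4 its change was 0.05 without a call. The Notum and Porcn peaks were both lost at 24 h of OCT4 depletion, by -2.44 ± 0.43 (adjusted p = 3.24e-05) and -1.06 ± 0.23 (0.000666). At Sfrp2, a secreted Wnt binder, a peak 14.7 kb upstream was lost at 2 h in all 3 lines (-1.79 ± 0.39 after SOX2, -1.25 ± 0.33 after OCT4 and -1.94 ± 0.39 after NANOG depletion, adjusted p = 0.00204, 0.0102 and 0.00408). These 3 peaks were chosen after their values were seen.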

How the data were processed

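Chromatin accessibility was read from 31 of the 45 samples of the series, the libraries of the SOX2-FKBP, OCT4-FKBP and NANOG-FKBP time courses; the other 14 were not analysed here. Before depositing, the authors mapped the read pairs with BWA 0.7.17-r1188 (genome build mm10), filtered them on a mapping quality of at least 10 (SAMtools 1.10), took out duplicates (Picard 2.12.0), merged libraries to call peaks (MACS2) and then tabulated the raw counts of fragments per peak and library. The peak list deposited by the authors also gives each peak's summit, its fold enrichment over background and −log10 q, of which the summit was used. Groups followed the labels.

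Summits were placed by the GENCODE mm10 annotation, and sequence came from the mm10 reference. The test was edgeR's quasi-likelihood test (edgeR 4.0.16, R 4.3.3) on TMM-scaled counts, adjusted over all peaks by Benjamini-Hochberg, with a threshold of 0.05. A fit of the 12 SOX2-FKBP libraries gave 0.5 and 1 h; it held 160432 peaks, those above 10 counts in over 2 libraries. A fit of the 27 libraries of NT, 2, 6 and 24 h in the 3 lines gave the later times and the differences; it held 166430 peaks, those above 10 counts in over 6 libraries. On simulated counts with 200 changed peaks the test recovered 29 of 100 log2 changes of 1 and 81 of 100 changes of 2 at 0.5 h of SOX2 depletion (160432 peaks), and 5 and 73 of 100 at 2 h (166430 peaks). Of the 119 simulated calls at 0.5 h 9 were of unchanged peaks, and of the 88 at 2 h 10 were. In the data 5041 peaks were lost at 0.5 h and 8427 at 2 h. With only 200 changed peaks the adjusted threshold was stricter, so these recoveries cannot be carried over to the calls above. Alternatives were DESeq2 1.42.0, other scalings, loess (limma 3.58.1) and GC offsets, other count filters, a replicate block, separate fits and leaving out each library.

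Same-numbered OCT4-FKBP libraries deviated together (correlation of deviations from group means 0.148 to 0.354 in 6 of 6 pairs of groups), so the numbers were taken to pair them. In the SOX2-FKBP line 11 of 15 pairs and in the NANOG-FKBP line no pair with NT passed 0.1, and those numbers were not. The highest SOX2-FKBP pair (0.229) and the treated times of the NANOG-FKBP line (0.173 to 0.209) nonetheless lay above the lowest OCT4-FKBP pair. The edgeR fits behind the calls held no replicate block in any line. Calls therefore did not use the OCT4-FKBP pairing unless a block is named.

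The genes and lists were chosen with earlier results of these data known. Peaks named were, for each gene, the promoter peak with the highest NT mean; other peaks with a mean of at least 50 in the higher group and the same direction in all treated replicates, up to 12 by adjusted p lost at 2 h and 6 by size gained at 24 h in the SOX2-FKBP and OCT4-FKBP lines; up to 6 called after NANOG depletion; those differing between SOX2 and OCT4 at 2 h; and up to 10 promoters by adjusted p. Any other is said to have been chosen after its values were seen. Where no other setting is named beside such a peak, its call is given from the edgeR fit alone and may not hold under others. Precision is limited by counting error in weak peaks and by 2 or 3 libraries per group.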

Additional observations from a re-analysis of the deposited data

Results flagged for a closer look

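The response to SOX2 depletion minus that to OCT4 depletion passed edgeR's test of the difference at 9 results among the distal Wnt gene peaks. At 2 h these were -1.59 at the Fzd8 peak 14.6 kb upstream and -2.64 at that 4.3 kb downstream, and -1.58 and 1.62 at the Fzd10 peaks 11.4 and 3.8 kb upstream. At 24 h they were -1.39 at the Tcf7 peak 11.3 kb upstream, -2.26 at the Fzd3 peak 16.8 kb downstream, -4.89 at the Fzd8 peak 4.3 kb downstream, -2.78 at the Wnt16 peak 1.2 kb upstream and -2.06 at the Fzd4 peak 12.3 kb upstream, all on the log2 scale. In the fit without a replicate block the 4 differences at 2 h were at Fzd8 and Fzd10, and in both genes a neighbouring peak was not called different. With the block 11 peaks differed at 2 h, and 1 to 5 did when a library was left out. SOX2-FKBP and OCT4-FKBP cells come from different parental lines, and the part of the line in these differences cannot be told apart from that of the factor.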

How the results depend on the processing

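Counts here are of Wnt gene peaks over all classes. The counts over all peaks tested moved with the setting too, and no share of them is given below. At 2 h of SOX2 depletion 8427 of all peaks were lost and 955 gained in the main fit. DESeq2 gave 6664 and 369, the replicate block 12389 and 4183, and separate fits 14682 and 4195. Where ranges over libraries left out are given below for gains alone, losses were also fewer than in the main fit each time. With DESeq2 1 peak was lost and 0 gained at 0.5 h of SOX2 depletion in place of 5 and 2, 7 and 0 at 1 h in place of 11 and 7, 0 were gained at 2 h in place of 3 and 6 at 24 h in place of 10, and 0 were lost at 2 h of NANOG depletion in place of 1. Total-count scaling moved the median of all peaks at 24 h of OCT4 depletion from -0.013 to -0.142, and gave 0 gains at 2 h and 6 at 24 h of SOX2 depletion, 0 losses at 2 h of NANOG depletion and 3 peaks that differed between SOX2 and OCT4 at 24 h in place of 5. With at least 10 counts required in every library, which leaves fewer peaks to test, SOX2 depletion gave 1 gain at 0.5 h, 5 losses and 1 gain at 2 h, 8 and 0 at 6 h and 12 and 2 at 24 h; OCT4 depletion gave 0 gains at 2 h, 10 losses and 0 gains at 6 h and 16 and 17 at 24 h; NANOG depletion gave 0 losses at 2 h and 1 at 24 h; and 2 and 1 peaks differed at 2 and 24 h. Separate fits per comparison gave 11 losses and 4 gains at 0.5 h of SOX2 depletion, 4 gains at 1 h, 18 and 12 at 2 h, 13 gains at 6 h and 31 at 24 h, and 22 gains at 24 h of OCT4 depletion in place of 38.

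With the replicate block, SOX2 depletion gave 12 losses and 5 gains at 0.5 h, 18 gains at 1 h, 14 losses and 13 gains at 2 h, 13 gains at 6 h and 32 at 24 h. The replicate block gave 18 losses and 16 gains at 2 h of OCT4 depletion and 39 gains at 6 h, and 3 losses and 2 gains at 2 h and 2 and 2 at 6 h of NANOG depletion. With the block 11 and 15 peaks differed between SOX2 and OCT4 at 2 and 24 h, and 25 and 69 changed between 2 and 24 h of SOX2 and of OCT4 depletion. With the block and GC offsets together the counts were 12 losses at 0.5 h of SOX2 depletion, 17 losses and 14 gains at 1 h, and 9, 9 and 21 gains at 2, 6 and 24 h; 17 losses and 15 gains at 2 h and 32 gains at 6 h of OCT4 depletion; 2 losses and 2 gains at 2 and at 6 h and 1 gain at 24 h of NANOG depletion; 11 and 16 differences; and 22 and 63 changes between 2 and 24 h. Outside the OCT4-FKBP line the numbers were not taken to pair the libraries. Correlations were 0.0794 to 0.229 in the SOX2-FKBP line. In the NANOG-FKBP line they were 0.0363 to 0.0828 with NT and 0.173 to 0.209 between treated times. Some of these lie above the lowest OCT4-FKBP value of 0.148, so same-numbered libraries of these lines may share more than a number.

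Leaving out each library in turn, losses and gains ranged over 1 to 4 and 0 to 0 at 0.5 h of SOX2 depletion, 6 to 12 and 0 to 8 at 1 h, 0 to 0 gains at 2 h, 1 to 2 gains at 6 h and 2 to 7 at 24 h; 5 to 9 and 3 to 5 at 2 h of OCT4 depletion, 9 to 16 gains at 6 h and 17 to 26 and 14 to 44 at 24 h; and 0 to 2, 0 to 1 and 1 to 5 losses at 2, 6 and 24 h of NANOG depletion. Differences between SOX2 and OCT4 ranged over 1 to 5 at 2 h and 3 to 5 at 24 h, and changes between 2 and 24 h over 0 to 2 and 8 to 43.

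Of 147 called values at the 59 peaks named by rule, 60 kept their call under every setting and library left out. The block with GC offsets reversed 5, all promoters of the OCT4-FKBP line that lost their call: at 24 h Fzd5 (-0.14), Fzd9 (-0.12), Tcf7 (-0.23) and Tcf7l2 (-0.14), and from 2 to 24 h Tcf7 (-0.0373). The causes were not tested, except that fewer peaks or libraries enter where said. Leaving out 1 library ended 212 of these calls and kept 411, counting each library left out for each value. Peaks of a few counts were measured with little precision at this depth, although some were called different from NT.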
